A study of Mus musculus with 12 samples.

Results

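Nuclear receptors and the proteins that work with them were examined in mouse liver as a set of 41 genes, named by symbol among the 24537 genes of the deposited RNA-Seq table, and all 41 were found. The set holds 29 nuclear receptors, 5 coactivators, 2 corepressors, 2 factors of mitochondrial gene expression and 3 liver-enriched transcription factors. The study asked when calorie restriction (CR) slows protein synthesis in the liver and sequenced liver mRNA at days 25 and 30. All 12 animals were male C57Bl/6J mice, 6 weeks old at the start and housed singly, with 3 Con and 3 CR mice at each day. According to the paper, mice were labeled with heavy water, injected and then given to drink, in the days before sacrifice. Con mice ate NIH41 diet ad libitum. CR mice received 30% fewer calories of a fortified NIH41 diet, given daily at midday. Fewer calories, the fortified diet and the daily midday meal, with the fast that follows it, cannot be told apart. The hour at which livers were taken is not given in the sources used here.

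Nuclear receptors are transcription factors, many of which are switched by a small lipid-soluble ligand such as a fatty acid, an oxysterol, a bile acid, a steroid or thyroid hormone. Many bind DNA as a dimer with a retinoid X receptor, and they recruit coactivators or corepressors that open or close the chromatin around their targets. In hepatocytes they set the rates of fatty acid oxidation, bile acid and cholesterol handling, drug metabolism and the response to fasting.

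Levels are given in FPKM, the reads on the exons of a gene scaled to exon length and library size. Each library held between 15748815 and 23345287 reads, and at this depth the members with an FPKM below 1 rest on few reads. CR was compared with Con by limma on log2(FPKM + 1), with p-values adjusted by the Benjamini-Hochberg method over the 10593 genes that reached an FPKM of 1 in 3 or more libraries. A gene passed the test at an adjusted p under 0.1. Fold changes are CR against Con on the log2(FPKM + 1) scale, with the SE of the model, and understate the changes of low genes. Values in individual mice are listed in the order of their numbers. Markers of hepatocytes were abundant, with a summed FPKM of 40532 to 68612 over 10 genes, while 7 lymphocyte markers summed to 0.319 to 1.799 FPKM. In bulk liver, fewer cells of a type and less RNA per cell cannot be told apart.

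The liver expressed its nuclear receptors over a very wide range. Hnf4a, a master regulator of hepatocyte identity, had the highest mean over the 12 mice, 176 FPKM, with a range of 138 to 227. Nr1i3, the constitutive androstane receptor CAR, followed at 149 FPKM with a range of 87.3 to 203, and the ranges of these genes overlapped. Among the other receptors, the retinoid X receptor Rxra averaged 97.9 FPKM, the bile acid receptor Nr1h4 averaged 73.4 and the fatty acid receptor Ppara averaged 65.7. The liver-enriched factors Cebpa and Cebpb, basic leucine zipper proteins that regulate metabolic and acute-phase genes, averaged 122 and 51.2 FPKM. At the other end, 4 members were too low to be tested. Vdr, the vitamin D receptor, had at most 0.0270 FPKM in any mouse, Hnf4g had at most 0.104 and Nr2f1 had at most 0.506. Nr4a1, an immediate-early orphan receptor, lay between 0.0770 and 1.76 FPKM.

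**Figure D1:**
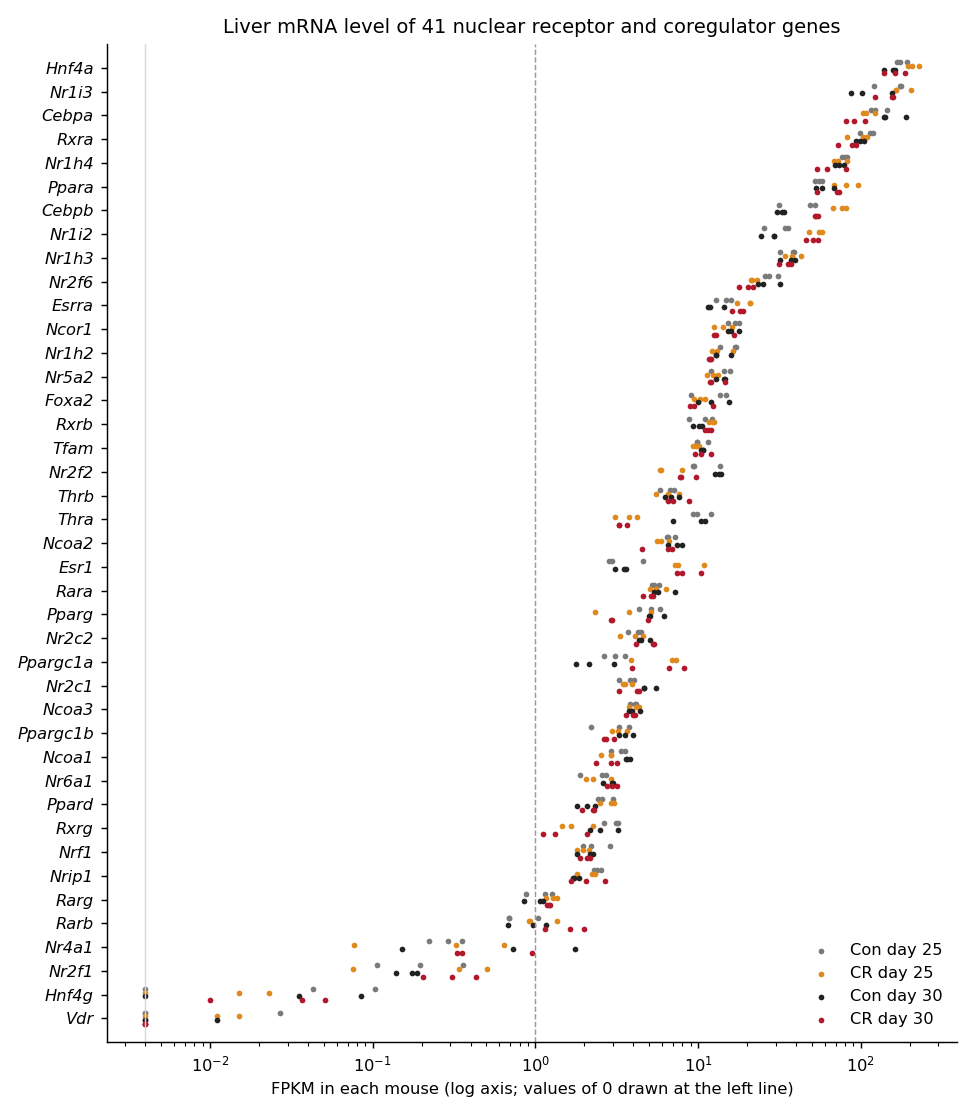
Level of each of the 41 genes in FPKM (log axis), 1 point per mouse and 1 colour per group, ordered by the mean of all 12 mice; values of 0 are drawn at the left line and the dashed line marks an FPKM of 1. Hnf4a, Nr1i3, Cebpa and Rxra lie at the top, Vdr and Hnf4g lie at or below 0.104 FPKM in every mouse, and the points of the diets separate for Nr1i2, Thra and Esr1.

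At day 25, CR changed 9 of the 37 members tested, where 14.9% of all genes tested passed. The pregnane X receptor Nr1i2, the estrogen receptor Esr1, Ppara, the estrogen-related receptor Esrra, the coactivator Ppargc1a and Cebpb were the 6 that were higher under CR, as were 5.6% of all genes tested. The thyroid hormone receptor Thra, the retinoid X receptor Rxrg and the orphan receptor Nr2f2 were the 3 that were lower, as were 9.34% of all genes tested. At day 30, 12 of the 37 members passed, where 24.7% of all genes tested passed. Nr1i2, Esr1, Esrra, Ppargc1a, Cebpb and the retinoic acid receptor Rarb were higher, as were 8.33% of all genes tested. Thra, Rxrg, Nr2f2, Nr2f6, the coactivator Ncoa1 and Cebpa were lower, as were 16.4% of all genes tested. The calls of both days shared 8 genes, each with the same direction at both days. The share of all genes tested that passed at both days is not given here, so this count is not read as a trait of the members. An absolute log2 fold change of 1 or more was also reached by 2 members at day 25, Thra and Esr1, against 1.48% of all genes tested. At day 30, Thra, Esr1 and Ppargc1a reached it, against 2.21% of all genes tested. The median log2 fold change of the tested members was -0.01 at day 25 and -0.04 at day 30, and that of all genes tested was -0.04 and -0.07. At day 25 the values of the diets did not overlap for 11 members, and 28.2% of all genes tested did not overlap. At day 30 this was so for 18 members, and for 36.4% of all genes tested.

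**Figure D2:**
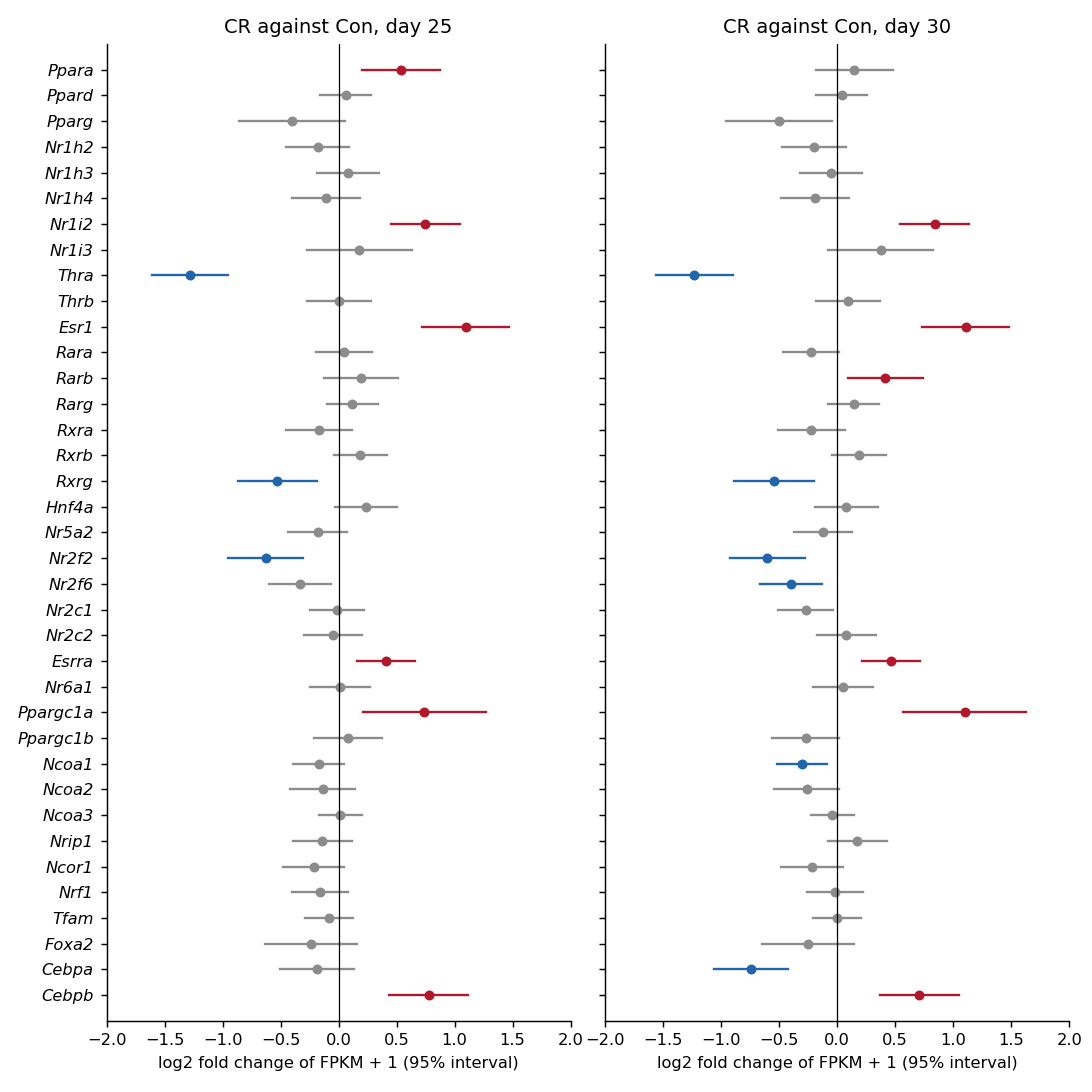
Log2 fold change of FPKM + 1, CR against Con, for the 37 tested members at day 25 (left) and day 30 (right), as points with 95% intervals from limma with 3 mice per group; red points passed the test as higher, blue points as lower, and grey points did not pass. Thra lies below -1 and Esr1 above 1 at both days. Within 0.5 of 0 lie 78.4% of the members at day 25 and 75.7% at day 30, beside 91.2% and 88.0% of all genes tested.

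Nr1i2, Thra, Esr1, Rxrg, Nr2f2, Esrra, Ppargc1a and Cebpb passed at both days, and their values in every mouse are described with their families. Promoter windows from RefSeq (GRCm38.p6), which run from 250 bases before to 50 bases after a transcription start, were matched to 36 of the 41 members by symbol. In 33 of them the start lay within 50 bases of the start of the deposited transcript. Windows are shown for 3 genes that rose and 1 that fell at both days, so that the letters around the start can be read beside the changes. Windows of Thra, Hnf4g, Ppargc1b, Ncoa2 and Ncoa3 were not used here. The Esr1 window is chr10:4611739-4612038 on the plus strand, that of Nr1i2 is chr16:38294775-38295074 on the minus strand, that of Cebpb is chr2:167688665-167688964 on the plus strand and that of Rxrg is chr1:167618015-167618314 on the plus strand. Capitals mark CCAAT in Esr1 and Nr1i2, the GC box GGGCGG in Cebpb and the nuclear receptor half-site AGGTCA in Rxrg, each on either strand.
Esr1: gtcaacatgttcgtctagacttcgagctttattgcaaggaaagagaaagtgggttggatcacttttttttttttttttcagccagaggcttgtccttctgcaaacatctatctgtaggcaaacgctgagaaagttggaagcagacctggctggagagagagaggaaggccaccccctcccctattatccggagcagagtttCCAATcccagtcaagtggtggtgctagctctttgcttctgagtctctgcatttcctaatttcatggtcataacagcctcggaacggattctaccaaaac
Nr1i2: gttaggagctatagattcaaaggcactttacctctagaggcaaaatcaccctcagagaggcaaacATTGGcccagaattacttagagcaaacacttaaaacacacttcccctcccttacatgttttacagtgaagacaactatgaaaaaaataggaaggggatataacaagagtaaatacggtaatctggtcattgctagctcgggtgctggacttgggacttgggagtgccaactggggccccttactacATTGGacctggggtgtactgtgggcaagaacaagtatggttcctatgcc
Cebpb: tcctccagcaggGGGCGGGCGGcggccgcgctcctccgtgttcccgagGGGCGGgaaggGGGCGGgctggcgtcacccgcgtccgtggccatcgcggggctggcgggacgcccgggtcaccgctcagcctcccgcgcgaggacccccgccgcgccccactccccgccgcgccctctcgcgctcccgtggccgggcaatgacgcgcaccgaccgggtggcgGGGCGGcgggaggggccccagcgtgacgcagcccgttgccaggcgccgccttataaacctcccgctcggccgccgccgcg
Rxrg: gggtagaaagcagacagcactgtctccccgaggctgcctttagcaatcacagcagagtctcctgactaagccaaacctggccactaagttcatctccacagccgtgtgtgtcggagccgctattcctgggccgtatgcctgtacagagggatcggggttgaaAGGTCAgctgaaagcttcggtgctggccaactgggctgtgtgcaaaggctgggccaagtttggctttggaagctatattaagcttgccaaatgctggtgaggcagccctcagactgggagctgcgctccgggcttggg
The Esr1 window held CCAAT once, from position -49 relative to the start, and the Nr1i2 window held it 2 times as its reverse complement ATTGG. This motif occurred in 8 of the 36 member windows (22.2%) and in 38.8% of all 17594 windows. The Cebpb window, with 80.7% G and C, held GGGCGG 5 times, and this motif was in 17 of the 36 member windows (47.2%) against 46.3% of all windows. The half-site of Rxrg began at position -88. AGGTCA was in 6 member windows (16.7%), those of Nr1h4, Nr6a1, Pparg, Rxra, Rxrg and Thrb, against 14.5% of all windows. The E-box CACGTG was in 1 member window, that of Nr1i3, and in 8.04% of all windows, and the cAMP response element TGACGTCA was in 0 of the 36 and in 2.35% of all windows. Such matches describe the letters of the window only.

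**Figure D3:**
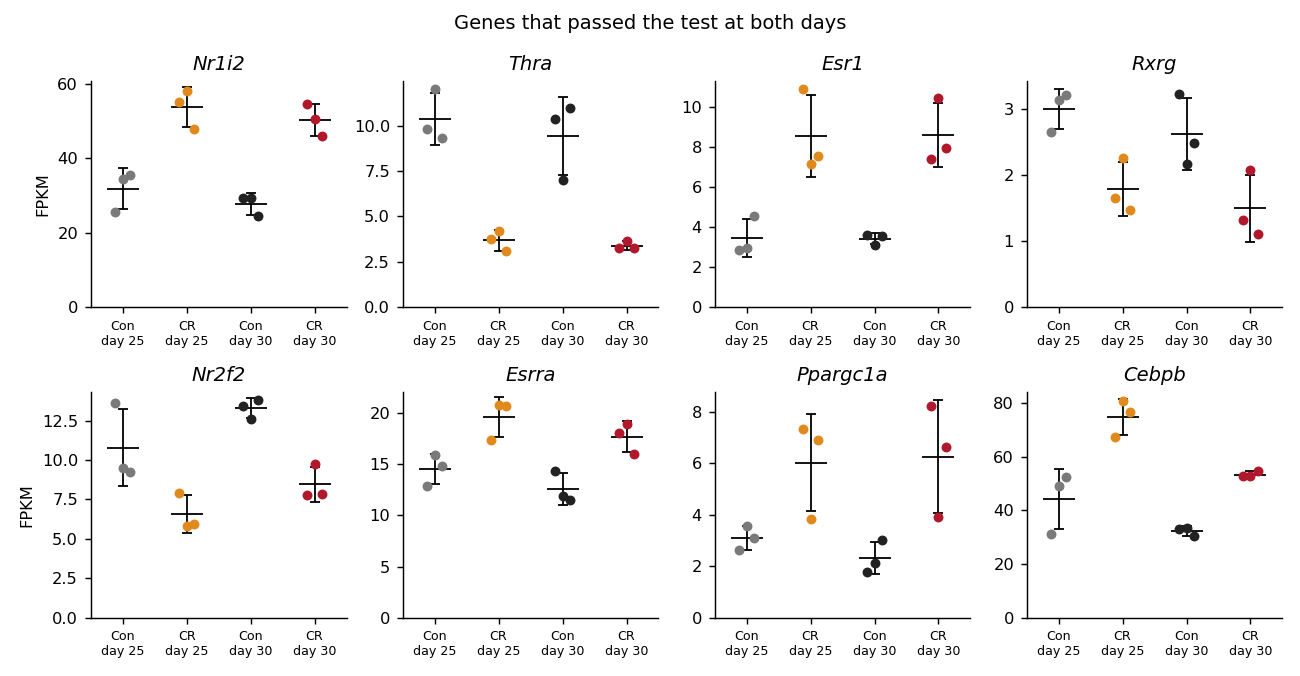
FPKM in every mouse for the 8 genes that passed the test at both days; points are mice, horizontal bars are means and error bars are SD (n = 3 mice per group). In each panel the CR mice of a day do not overlap the Con mice of that day.

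Among the fatty acid receptors, Ppara changed at day 25. Ppara (PPAR-alpha) is the receptor through which fatty acids drive the oxidation and ketogenesis genes of the fasted liver. Its level at day 25 was 52.4, 55.6 and 58.0 FPKM in Con mice and 95.9, 67.9 and 80.6 FPKM in CR mice. Every CR mouse lay above every Con mouse, and the mean was 1.47 times that of Con mice. The log2 fold change was 0.54 ± 0.15 (limma, Benjamini-Hochberg adjusted p = 0.0469). At day 30, Con mice had 68.6, 57.7 and 52.8 FPKM and CR mice had 53.7, 73.6 and 71.8 FPKM. These values overlapped, and the log2 fold change of 0.15 ± 0.15 did not pass (adjusted p = 0.542). The call at day 25 was lost without Con mouse 1, CR mouse 1 or CR mouse 3 of that day, with adjusted p of 0.132, 0.159 and 0.115.

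Pparg, the adipogenic member of the family that is low in healthy liver, had 5.81, 4.35 and 5.11 FPKM in Con mice and 3.75, 5.15 and 2.31 FPKM in CR mice at day 25. At day 30, Pparg had 6.15, 5.04 and 5.01 FPKM in Con mice and 2.93, 4.89 and 2.95 FPKM in CR mice. The diets overlapped at day 25 and were apart at day 30. The log2 fold changes of -0.40 ± 0.21 and -0.50 ± 0.21 did not pass at either day (adjusted p = 0.257 and 0.120), and the day 25 call was gained without CR mouse 2 of that day (adjusted p = 0.0871). At day 30 the gene passed without CR mouse 2 of day 30 or CR mouse 2 or 3 of day 25, with adjusted p of 0.0467, 0.0755 and 0.0632. Over both days, with day as a covariate, Pparg passed as lower, with a log2 fold change of -0.45 ± 0.14 (adjusted p = 0.0293). Ppard, the broadly expressed member, lay between 1.81 and 3.04 FPKM, with log2 fold changes of 0.06 and 0.04, neither of which passed.

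Of 21 tested textbook targets of PPAR-alpha, 1 was higher and 2 were lower at day 25, and 2 were higher and 4 were lower at day 30. These shares lie near the 14.9% and 24.7% of all genes tested that passed at these days, which are the background of every list count given here. The median log2 fold change was -0.06 at day 25 and -0.12 at day 30, beside -0.04 and -0.07 for all genes tested. Plin2, which coats lipid droplets, fell from 155 ± 12.9 to 93.7 ± 5.10 FPKM at day 25 (mean ± SD, n = 3) and from 169.8 ± 31.1 to 85.3 ± 8.10 at day 30. Angptl4, an inhibitor of lipoprotein lipase, rose by 0.57 and 0.67 on the log2 scale.

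The sterol and bile acid receptors did not pass the test at either day. Nr1h3 (LXR-alpha), the main oxysterol receptor of the liver, had 31.7, 38.9 and 38.2 FPKM in Con mice and 34.3, 43.2 and 38.0 FPKM in CR mice at day 25. At day 30, Nr1h3 had 39.5, 37.1 and 31.8 FPKM in Con mice and 37.0, 35.6 and 31.5 FPKM in CR mice. Con and CR mice overlapped at both days. The 95% intervals of its log2 fold change were -0.18 to 0.35 at day 25 and -0.32 to 0.21 at day 30, so that changes within these intervals were not excluded. Nr1h4 (FXR), which senses bile acids, had 82.5, 76.4 and 80.4 FPKM in Con mice and 72.9, 81.7 and 68.2 FPKM in CR mice at day 25. At day 30, Nr1h4 had 78.6, 73.5 and 69.7 FPKM in Con mice and 53.5, 80.7 and 62.2 FPKM in CR mice. The CR mice spread to both sides of the Con mice at day 30. The intervals of its log2 fold change were -0.40 to 0.19 and -0.49 to 0.10, and at day 30 it passed without CR mouse 2 (adjusted p = 0.0707). Nr1h2 (LXR-beta), the ubiquitous oxysterol receptor, had log2 fold changes of -0.18 ± 0.13 and -0.20 ± 0.13 around a mean level of 13.9 FPKM.

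Of 10 tested LXR targets, 2 were higher and 1 was lower at day 25, and 3 were higher and 1 was lower at day 30, with medians of -0.09 and 0.09. Abcg5 and Abcg8, which together form the transporter that moves cholesterol into bile, rose at both days. Abcg5 went from 42.2 ± 4.57 to 59.1 ± 3.04 FPKM at day 25 and from 44.0 ± 1.03 to 70.4 ± 6.21 at day 30. Abcg8 rose by 0.43 and 0.46 on the log2 scale. The lower targets were Pltp at day 25 and Abca1 at day 30, with log2 fold changes of -0.55 and -0.62. Of 8 tested FXR targets, 1 was higher and 2 were lower at day 25, and 0 were higher and 2 were lower at day 30, with medians of -0.15 and 0.07. Baat, which conjugates bile acids to amino acids, fell from 150.4 ± 8.02 to 109.6 ± 4.30 FPKM at day 25 and from 143 ± 18.8 to 91.4 ± 10.1 at day 30. The 1 higher at day 25 was Nr0b2, which rose from 13.3 ± 2.95 to 27.8 ± 4.36 FPKM, with a log2 fold change of 1.02. At day 30 its log2 fold change of 0.50 did not pass.

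The xenobiotic receptor Nr1i2 rose at both days. Nr1i2 (the pregnane X receptor, PXR; chr16:38248349-38294824 in mm10) switches on drug-metabolizing enzymes in response to steroids and foreign compounds. At day 25, Con mice had 25.4, 34.3 and 35.5 FPKM and CR mice had 55.1, 58.0 and 47.8 FPKM. At day 30, Con mice had 29.3, 29.3 and 24.4 FPKM and CR mice had 54.5, 50.5 and 45.8 FPKM. Every CR mouse was above every Con mouse at both days, and the lowest CR mouse of either day was above the highest Con mouse of either day. The mean was 1.69 times that of Con mice at day 25 and 1.82 times at day 30. The log2 fold changes were 0.75 ± 0.14 and 0.84 ± 0.14 (limma, adjusted p = 0.00684 and 0.00206). The related receptor Nr1i3 (CAR), which responds to phenobarbital-like compounds, had 121, 178 and 175 FPKM in Con mice and 164, 203 and 165 FPKM in CR mice at day 25. At day 30, Nr1i3 had 154, 87.3 and 102 FPKM in Con mice and 156, 159 and 122 FPKM in CR mice. One Con mouse of day 30 lay near the CR mice, the diets overlapped at both days, and the log2 fold changes of 0.18 ± 0.21 and 0.37 ± 0.21 did not pass. Without that Con mouse, numbered 1, Nr1i3 passed at day 30 (log2 fold change of 0.61, adjusted p = 0.0615). The kept transcript of Nr1i3 shares 256 exon bases with Tomm40l on the opposite strand, 18.3% of its exon length, and the reads of both genes cannot be told apart there if counting ignored strand.

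Of 12 tested targets of CAR and PXR, 3 were higher and 0 were lower at day 25, and 4 were higher and 2 were lower at day 30. The median log2 fold change was 0.29 and 0.54, beside -0.04 and -0.07 for all genes tested. Por, the reductase that passes electrons to cytochromes P450, rose from 283 ± 91.2 to 603 ± 49.0 FPKM at day 25 and from 167 ± 21.6 to 525 ± 29.3 FPKM at day 30. Cyp2a5, a coumarin hydroxylase, rose by 1.32 and 0.92 on the log2 scale. Its reads can be split with near-identical genes of its cluster, so its value is uncertain. Ugt1a1, which glucuronidates bilirubin, rose by 0.42 and 0.51. The 2 targets lower at day 30 were Cyp3a11 and Abcc3, with log2 fold changes of -0.67 and -0.40. Cyp3a11 fell from 4011 ± 533 to 2516 ± 161 FPKM at that day. At day 25 the log2 fold changes of Cyp3a11 and Abcc3, -0.45 and -0.04, did not pass.

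The thyroid hormone receptor Thra fell at both days. Thra (chr11:98741785-98769006 in mm10) encodes thyroid hormone receptor alpha, the form that predominates outside the liver. At day 25 it had 9.78, 12.0 and 9.29 FPKM in Con mice and 3.75, 4.20 and 3.06 FPKM in CR mice. At day 30, Thra had 10.4, 6.98 and 11.0 FPKM in Con mice and 3.25, 3.65 and 3.25 FPKM in CR mice. The highest CR mouse lay below the lowest Con mouse, and the CR mean was 0.354 of the Con mean at day 25 and 0.358 at day 30. On the log2 scale the changes were -1.28 ± 0.15 and -1.23 ± 0.15 (limma, adjusted p = 6.22e-04 and 4.00e-04). The 3' exons of the kept Thra transcript share 263 bases, 10.7% of its exon length, with Nr1d1 on the opposite strand. Nr1d1 (REV-ERB-alpha), a repressor of the circadian clock, fell from 45.5 ± 5.58 to 7.99 ± 0.936 FPKM at day 25 and from 50.6 ± 8.80 to 9.52 ± 0.511 FPKM at day 30. The HOMER command in the header of the table names no strand option, and if reads were counted without strand and lay evenly along exons, part of the Thra signal came from Nr1d1.

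Taking those shared reads off left Thra at 5.56 ± 0.942 FPKM in Con mice and 2.85 ± 0.640 in CR mice at day 25, and at 4.09 ± 1.23 and 2.39 ± 0.287 FPKM at day 30. The Con and CR mice then stayed apart at day 25, with a lowest Con value of 4.94 and a highest CR value of 3.49 FPKM. At day 30 they overlapped, with a lowest Con value of 2.67 and a highest CR value of 2.72 FPKM. The log2 fold changes became -0.77 and -0.56, which still passed (limma, adjusted p = 0.02003 and 0.0535) but no longer reached 1. This calculation was chosen after seeing the data.

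**Figure D4:**
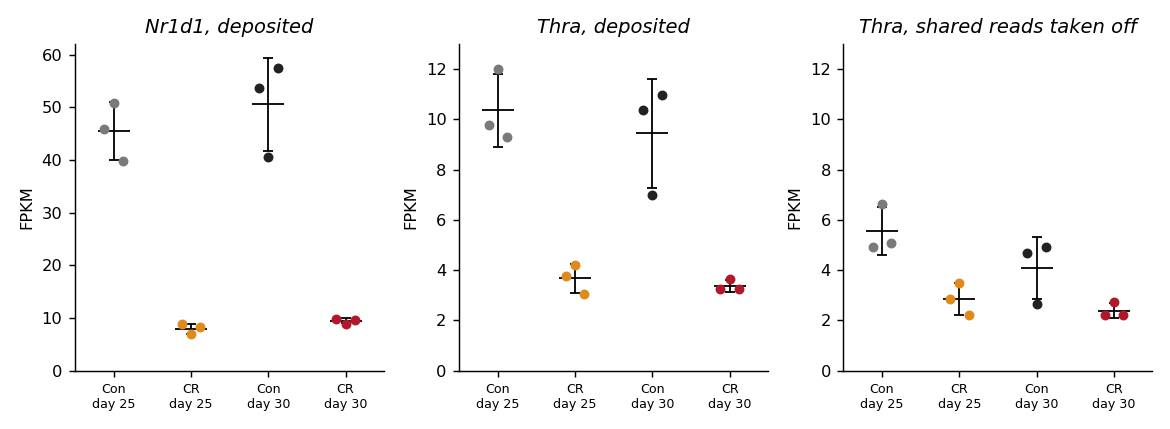
FPKM in every mouse of Nr1d1 as deposited (left), of Thra as deposited (middle) and of Thra after the reads it would share with Nr1d1 were taken off (right); bars are means and error bars are SD (n = 3 mice per group). Nr1d1 lies at 6.96 to 9.91 FPKM in the CR mice and at 39.8 to 57.4 FPKM in the Con mice, and the fall of Thra is smaller in the right panel, where 1 Con mouse of day 30 lies among the CR mice.

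Thrb, the main thyroid hormone receptor of hepatocytes, did not pass at either day. It had 7.09, 6.67 and 5.84 FPKM in Con mice and 7.65, 5.53 and 6.54 FPKM in CR mice at day 25. At day 30, Thrb had 6.78, 7.61 and 6.26 FPKM in Con mice and 6.57, 7.02 and 8.73 FPKM in CR mice. The diets overlapped at both days, and the 95% intervals of the log2 fold change were -0.27 to 0.28 and -0.18 to 0.37. Of 5 tested thyroid hormone targets, 1 was higher and 1 was lower at day 25, and 1 was higher and 2 were lower at day 30, with medians of -0.09 and -0.13. Thrsp (Spot14), a lipogenic gene, rose from 37.6 ± 5.74 to 191 ± 52.0 FPKM at day 25 and from 74.1 ± 24.6 to 347 ± 64.3 FPKM at day 30. Gpd2 was the target lower at day 25, with a log2 fold change of -0.43. Dio1 and Klf9 were those lower at day 30, with -1.09 and -0.46.

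Esr1 rose at both days. Esr1 (chr10:4611989-5005633 in mm10) encodes estrogen receptor alpha, which in liver regulates lipid metabolism in males as well as females. At day 25 it had 2.85, 2.97 and 4.56 FPKM in Con mice and 10.9, 7.16 and 7.56 FPKM in CR mice. At day 30, Esr1 had 3.62, 3.10 and 3.52 FPKM in Con mice and 7.40, 10.4 and 7.95 FPKM in CR mice. No CR mouse overlapped a Con mouse, and the CR mean was 2.47 times the Con mean at day 25 and 2.52 times at day 30. The log2 fold changes were 1.10 ± 0.17 and 1.11 ± 0.17 (limma, adjusted p = 0.00315 and 0.00155). Without CR mouse 1 of day 25, the highest CR value of that day, the log2 fold change at day 25 was 0.93 and still passed (adjusted p = 0.0139), so that 1 member rather than 2 met both thresholds. At day 30 it was 0.98 without CR mouse 2 of that day (adjusted p = 0.00597).

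Of the 6 retinoid receptors, 1 was lower at day 25, and 1 was higher and 1 was lower at day 30, beside 14.9% and 24.7% of all genes tested that passed. Rxra, the partner of most receptors described here, had 98.7, 118 and 113 FPKM in Con mice and 104, 108 and 82.5 FPKM in CR mice at day 25. At day 30, Rxra had 104, 98.6 and 92.7 FPKM in Con mice and 72.5, 93.9 and 87.6 FPKM in CR mice. The diets overlapped, and the intervals of the log2 fold change were -0.46 to 0.12 and -0.51 to 0.06. Rxrg, the least abundant retinoid X receptor, had 2.64, 3.14 and 3.21 FPKM in Con mice and 1.64, 2.25 and 1.46 FPKM in CR mice at day 25. At day 30, Rxrg had 3.23, 2.17 and 2.48 FPKM in Con mice and 1.31, 2.07 and 1.11 FPKM in CR mice. All CR mice were below all Con mice of the same day, and the log2 fold changes of -0.53 ± 0.16 and -0.55 ± 0.16 passed (limma, adjusted p = 0.0555 and 0.0336). The gene rests on 43 to 110 reads per library. At day 25 its call was lost without Con mouse 2 or 3 or CR mouse 1 or 3 (adjusted p of 0.126, 0.145, 0.142 and 0.182) or when genes of low FPKM were not removed (0.114), and at day 30 without Con mouse 1 or CR mouse 1 or 3 (adjusted p of 0.121, 0.114 and 0.111).

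Rxrb, the third retinoid X receptor, had 8.81, 12.2 and 11.0 FPKM in Con mice and 11.7, 12.4 and 12.5 FPKM in CR mice at day 25. At day 30, Rxrb had 10.5, 9.29 and 10.1 FPKM in Con mice and 11.9, 11.6 and 10.9 FPKM in CR mice. Con and CR mice overlapped at day 25, and at day 30 all CR mice were above all Con mice. Rxrb did not pass at either day and passed over both days with a log2 fold change of 0.19 ± 0.07 (adjusted p = 0.0619), a call that was lost without Con mouse 1 or CR mouse 3 of day 25 or without Con mouse 2 or CR mouse 1 of day 30 (adjusted p between 0.108 and 0.124). Rarb, a retinoic acid receptor whose own gene is a retinoic acid target, had 0.690, 0.691 and 1.04 FPKM in Con mice and 0.917, 1.35 and 0.929 FPKM in CR mice at day 25. At day 30, Rarb had 0.967, 1.16 and 0.680 FPKM in Con mice and 1.63, 1.98 and 1.15 FPKM in CR mice. The diets overlapped at both days, and it passed at day 30 with a log2 fold change of 0.42 ± 0.15 (adjusted p = 0.0745). That call, on 34 to 103 reads, was lost without Con mouse 1 or 3 or CR mouse 1 or 2 of day 30 (adjusted p of 0.129, 0.226, 0.188 and 0.216), when genes of low FPKM were not removed (0.114) or with the mice of day 30 alone (0.104), and the gene was not tested where an FPKM of 1 was asked of all libraries. Rara did not pass, with log2 fold changes of 0.04 and -0.23, nor did Rarg, with 0.12 and 0.14.

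Of 5 tested retinoic acid targets, 0 were higher and 2 were lower at day 25, and 2 were higher and 2 were lower at day 30, with medians of -0.35 and 0.01. Of the 2 higher at day 30, Cyp26a1 rose from 3.29 ± 1.58 to 20.2 ± 16.0 FPKM, with a log2 fold change of 2.07 (limma, adjusted p = 0.0179). At day 25 its log2 fold change of 0.72 did not pass. Tgm2, a transglutaminase, fell, with log2 fold changes of -0.53 at day 25 and -0.66 at day 30. Dhrs3, which reduces retinaldehyde to retinol, fell from 72.2 ± 3.51 to 52.9 ± 1.93 FPKM and from 75.5 ± 9.85 to 54.9 ± 4.97 FPKM. Stellate cells store retinoids, and 1 of 8 stellate markers was higher at day 25 and 4 of 8 at day 30, with 0 lower. Their summed FPKM was 107 to 123 in Con and 132 to 156 in CR mice at day 25, and 87.1 to 116 in Con and 137 to 156 in CR mice at day 30, and none was at 0 in all mice. The marker Reln rose by 0.51 and 0.46 on the log2 scale. The part of these cells in the values of Rarb was not tested.

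Among the orphan receptors, Nr2f2 fell and Esrra rose at both days and Nr2f6 fell at day 30, while Hnf4a did not pass. Hnf4a had 167, 191 and 174 FPKM in Con mice and 206, 196 and 227 FPKM in CR mice at day 25. At day 30, Hnf4a had 158, 163 and 139 FPKM in Con mice and 138, 163 and 187 FPKM in CR mice. The CR mice were all above the Con mice at day 25 and overlapped them at day 30. The log2 fold changes of 0.24 ± 0.12 and 0.08 ± 0.12 did not pass (adjusted p = 0.256 and 0.704). Of 12 tested HNF4A targets, 0 were higher and 1 was lower at day 25, and 1 was higher and 3 were lower at day 30, with medians of -0.11 and -0.04.

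Nr2f2 (COUP-TFII; chr7:70351950-70360593 in mm10), an orphan receptor known from blood vessel and organ development, had 13.6, 9.47 and 9.26 FPKM in Con mice and 7.94, 5.84 and 5.93 FPKM in CR mice at day 25. At day 30, Nr2f2 had 13.4, 12.6 and 13.8 FPKM in Con mice and 7.77, 9.76 and 7.84 FPKM in CR mice. The CR mice were all lower, and the log2 fold changes were -0.63 ± 0.15 and -0.60 ± 0.15 (limma, adjusted p = 0.0211 and 0.0177). Of 8 sinusoidal endothelial markers, 1 was higher at day 25, 4 were higher at day 30 and 0 were lower at either day. Their summed FPKM was 44.6 to 68.5 in Con and 59.2 to 70.8 in CR mice at day 25, and 46.5 to 49.2 in Con and 61.7 to 69.1 in CR mice at day 30. Their part in the values of Nr2f2 was not tested. Stab2, a scavenger receptor of these cells, rose by 0.40 and 0.36 on the log2 scale. Nr2f6, a relative of Nr2f2, had 27.1, 30.9 and 25.7 FPKM in Con mice and 21.5, 23.1 and 21.0 FPKM in CR mice at day 25. At day 30, Nr2f6 had 31.7, 25.2 and 23.2 FPKM in Con mice and 20.2, 21.8 and 17.8 FPKM in CR mice. The CR mice were all below the Con mice at both days. The log2 fold change of -0.34 ± 0.12 did not pass at day 25 (adjusted p = 0.113) and that of -0.40 ± 0.12 passed at day 30 (adjusted p = 0.0456). With the replicate number as a block, Nr2f6 passed at day 25 as well (adjusted p = 0.0460), and it also did so without Con mouse 1 of day 30 (adjusted p = 0.0772). The day 30 call was lost without Con mouse 1 or CR mouse 1 or 3 of day 30 (adjusted p of 0.159, 0.105 and 0.135).

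Esrra (ERR-alpha; chr19:6910977-6921808 in mm10), which with its coactivator PGC-1 alpha drives mitochondrial genes, had 12.9, 15.9 and 14.9 FPKM in Con mice and 17.4, 20.8 and 20.7 FPKM in CR mice at day 25. At day 30, Esrra had 14.4, 11.9 and 11.5 FPKM in Con mice and 18.1, 19.0 and 16.0 FPKM in CR mice. Each CR mouse lay above each Con mouse of its day. On the log2 scale the changes were 0.41 ± 0.12 and 0.46 ± 0.12 (limma, adjusted p = 0.0467 and 0.0191). Its call at day 25 was lost without Con mouse 1 or CR mouse 2 or 3 of that day (adjusted p of 0.156, 0.116 and 0.146). The kept transcript shares 50 bases, 2.24% of its exon length, with Trmt112 on the opposite strand. Nr5a2 (LRH-1), a regulator of bile acid synthesis, had log2 fold changes of -0.18 and -0.12, and Nr6a1 had 0.01 and 0.05. Of the testicular receptors, Nr2c1 had -0.01 and -0.27 and Nr2c2 had -0.05 and 0.08, and none of these passed. Nr2c1 at day 30, with an adjusted p of 0.106, passed without Con mouse 2 of day 25 or CR mouse 3 of day 30 (adjusted p of 0.0980 and 0.0921). Of the exon bases of Nr2c2, 46.5% are shared with Mrps25 on the opposite strand, so its level is uncertain.

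Of the coregulators, Ppargc1a rose at both days. Ppargc1a (PGC-1 alpha; chr5:51454249-51567725 in mm10) is the fasting-induced coactivator of gluconeogenesis and mitochondrial biogenesis, and the table lists it under a transcript annotated as non-coding. At day 25 it had 2.63, 3.58 and 3.10 FPKM in Con mice and 7.34, 3.85 and 6.88 FPKM in CR mice. At day 30, Ppargc1a had 1.79, 2.13 and 3.03 FPKM in Con mice and 8.22, 3.90 and 6.63 FPKM in CR mice. CR mouse 2 lay lower than the other CR mice at each day but above all Con mice of that day. The CR mean was 1.94 times the Con mean at day 25 and 2.70 times at day 30. The log2 fold changes were 0.74 ± 0.24 and 1.10 ± 0.24 (limma, adjusted p = 0.0772 and 0.00998). The day 25 call was lost without CR mouse 1 or 3 (adjusted p of 0.217 and 0.218), without Con mouse 1, 2 or 3 of that day (0.204, 0.105 and 0.156), and when genes of low FPKM were not removed (0.158). At day 30 the log2 fold change was 0.98 without Con mouse 1 and 0.90 without CR mouse 1 of that day, and still passed (adjusted p = 0.0408 and 0.0491). Ppargc1b (PGC-1 beta), a coactivator of mitochondrial and lipogenic genes, did not pass, with log2 fold changes of 0.08 ± 0.13 and -0.27 ± 0.13, and passed at day 30 without Con mouse 1 of day 25 (adjusted p = 0.0808).

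Of 10 tested targets of PGC-1 and ERR-alpha, 0 passed at day 25 in limma and 4 were higher and 0 lower at day 30, with medians of 0.28 and 0.33 beside -0.04 and -0.07 for all genes tested. At day 25, 9 of the 10 had a log2 fold change above 0, and the share of all genes tested above 0 is not given here. Over both days 7 of the 10 were higher and 0 were lower, where 14.5% of all genes tested were higher and 26.1% were lower. None of the targets passed at both days, so no target is named by the rule used for the other lists. Nrf1, which directs nuclear genes of mitochondria, had log2 fold changes of -0.16 ± 0.11 and -0.02 ± 0.11 and did not pass. Tfam, which packages and transcribes mitochondrial DNA, had -0.08 ± 0.10 and -0.00102 ± 0.10 and did not pass either. Of 9 other genes of mitochondrial DNA expression, 0 were higher and 1 was lower at each day. That gene, the topoisomerase Top1mt, fell, with log2 fold changes of -0.48 at day 25 and -0.39 at day 30.

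Of the p160 coactivators, which bring histone acetyltransferases to receptors, Ncoa1 fell at day 30. Ncoa1 (SRC-1) had 3.56, 3.35 and 2.91 FPKM in Con mice and 2.93, 2.53 and 2.92 FPKM in CR mice at day 25. At day 30, Ncoa1 had 3.58, 3.82 and 3.66 FPKM in Con mice and 2.34, 2.93 and 3.16 FPKM in CR mice. Con and CR mice overlapped at day 25 and were apart at day 30, where the log2 fold change of -0.30 ± 0.10 passed (limma, adjusted p = 0.0566). That call was lost without Con mouse 1, 2 or 3 or CR mouse 1 of day 30 (adjusted p of 0.103, 0.145, 0.115 and 0.211), and under median-ratio scaling (0.117) or quantile normalization (0.143). Ncoa2 did not pass, with log2 fold changes of -0.14 and -0.26, nor did Ncoa3, with 0.01 and -0.04. The corepressor Ncor1, a scaffold for histone deacetylase 3, had 17.9, 15.3 and 16.8 FPKM in Con mice and 16.1, 12.6 and 14.3 FPKM in CR mice at day 25. At day 30, Ncor1 had 15.4, 17.8 and 16.0 FPKM in Con mice and 12.6, 12.9 and 16.5 FPKM in CR mice. The diets overlapped at both days and it did not pass at either. Over both days it passed as lower, with a log2 fold change of -0.22 ± 0.08 (adjusted p = 0.0607), a call lost under median-ratio scaling and quantile normalization (adjusted p of 0.231 and 0.166) and without CR mouse 2 or Con mouse 1 of day 25 or CR mouse 1, CR mouse 2 or Con mouse 2 of day 30 (adjusted p between 0.117 and 0.128). It passed at day 30 without CR mouse 3 of that day (adjusted p = 0.0848). Nrip1 (RIP140), a corepressor of oxidative genes, had log2 fold changes of -0.14 ± 0.12 and 0.17 ± 0.12. Of 19 other coregulators tested, 1 was higher and 0 were lower at day 25, and 1 was higher and 2 were lower at day 30. The one that passed at both days was Ncoa4, a receptor coactivator also known as the cargo receptor for ferritin, with log2 fold changes of 0.30 and 0.31.

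The liver-enriched factors Cebpb and Cebpa passed in opposite directions. Cebpb (chr2:167688915-167690432 in mm10), induced by glucocorticoids, glucagon and acute-phase signals, had 31.3, 49.0 and 52.4 FPKM in Con mice and 67.5, 80.7 and 76.5 FPKM in CR mice at day 25. At day 30, Cebpb had 32.9, 33.6 and 30.3 FPKM in Con mice and 52.6, 52.7 and 54.7 FPKM in CR mice. All CR mice were above all Con mice of their day, and the means were 1.69 and 1.65 times those of Con mice. On the log2 scale the changes were 0.78 ± 0.16 and 0.71 ± 0.16 (limma, adjusted p = 0.0109 and 0.0104). Cebpa, which maintains the differentiated state of hepatocytes, had 123, 144 and 115 FPKM in Con mice and 107, 123 and 104 FPKM in CR mice at day 25. At day 30, Cebpa had 189, 139 and 141 FPKM in Con mice and 80.9, 106 and 90.2 FPKM in CR mice. Con and CR mice overlapped at day 25 and were apart at day 30, with log2 fold changes of -0.19 ± 0.15 (adjusted p = 0.464) and -0.75 ± 0.15 (adjusted p = 0.00559). Foxa2, a pioneer factor of liver chromatin, did not pass, with -0.24 ± 0.18 and -0.25 ± 0.18. Of 11 other liver-enriched factors, 1 was higher and 2 were lower at day 25, and 2 were higher and 2 were lower at day 30. Cebpd, a relative of Cebpb, rose by 0.59 and 0.55 on the log2 scale.

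**Figure D5:**
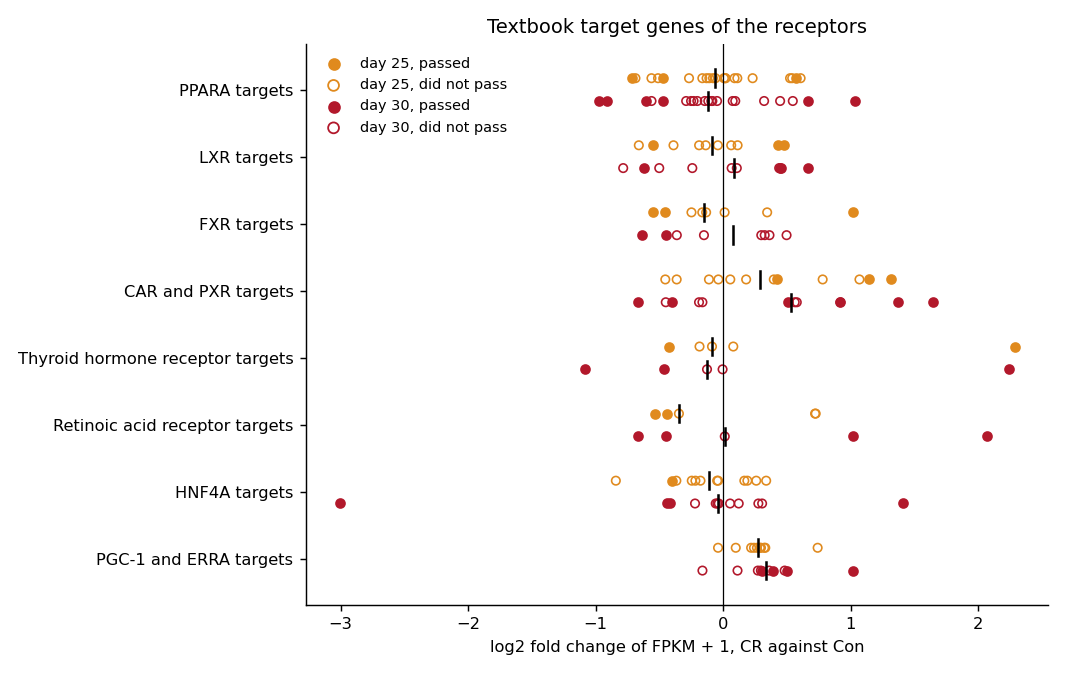
Log2 fold change of FPKM + 1, CR against Con, of textbook target genes of the receptors at day 25 (orange) and day 30 (red); filled points passed the test, open points did not, and black ticks mark the median of each list. The medians of the targets of CAR and PXR are 0.29 and 0.54 and those of PGC-1 and ERR-alpha are 0.28 and 0.33, while the other medians lie between -0.35 and 0.09.

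Over both days, with 6 mice per diet and day as a covariate, 16 of the 37 members passed, where 40.6% of all genes tested passed. They were 8 higher and 8 lower under CR, beside 14.5% of all genes tested that were higher and 26.1% that were lower. With median-ratio scaling between libraries, 11 were higher and 7 were lower. The 16 hold the 13 members that passed at either day together with Pparg, Rxrb and Ncor1. Thra had a combined log2 fold change of -1.26 ± 0.10, Esr1 of 1.10 ± 0.12 and Ppargc1a of 0.92 ± 0.17 (limma, adjusted p = 6.43e-06, 3.56e-05 and 0.00166). With the reads shared with Nr1d1 taken off, that of Thra was -0.665 (adjusted p = 0.00177). The members that passed at 1 day only had combined log2 fold changes of 0.34 for Ppara, 0.30 for Rarb, -0.37 for Nr2f6, -0.24 for Ncoa1 and -0.47 for Cebpa. A further 10 members passed over both days when 1 mouse was left out, with adjusted p between 0.0374 and 0.0999. They were Nr1h2, Ppargc1b and Rxra without Con mouse 1 of day 25, Nr2c1 and Nr5a2 without Con mouse 2, Foxa2 without Con mouse 3, Ncoa2 without CR mouse 1, and Nr1h2 and Rxra without CR mouse 2 of that day. Among the mice of day 30, leaving out Con mouse 1 added Nr1i3, Con mouse 3 added Foxa2, CR mouse 1 added Foxa2 and Hnf4a, CR mouse 2 added Nr1h4 and Rxra, and CR mouse 3 added Ncoa2 and Nr5a2. Of these, Hnf4a and Nr1i3 also passed under median-ratio scaling, Nr1h2 and Rxra as TPM, and Nr1h4 and Rxra after quantile normalization. Rarg, which is not among the 10, passed under median-ratio scaling and after quantile normalization.

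The effect of CR was not shown to differ between the days for any member. In the test of that difference by limma, 0 of the 37 members passed, where 0.00944% of all genes tested passed, and voom on the reads recovered from the FPKM gave 0 members as well. At an unadjusted p under 0.05 the test gave 1 member, Cebpa, and 366 of all genes. For Cebpa the log2 fold change at day 30 minus that at day 25 was -0.56 ± 0.21 (unadjusted p = 0.0197, adjusted p = 0.9995), with a 95% interval of -1.01 to -0.11. For Ppara, which passed at day 25 alone, the difference was -0.39 ± 0.22 with an interval of -0.86 to 0.08. Ppargc1a differed by 0.36 ± 0.34 with an interval of -0.39 to 1.10.

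Nuclear receptors outside the 41 genes were covered by a list of 20, of which 10 were tested. Of these, 2 were higher and 2 were lower at day 25, and 1 was higher and 2 were lower at day 30, with medians of 0.18 and 0.02. Beside Nr1d1, the mineralocorticoid receptor Nr3c2 fell from 3.14 ± 0.371 to 1.29 ± 0.416 FPKM and from 3.76 ± 0.470 to 1.44 ± 0.402 FPKM. Markers of Kupffer cells, the resident macrophages of the liver, moved at day 25, where 0 of 8 were higher and 5 were lower, while at day 30 1 was higher and 0 were lower. Their summed FPKM was 51.3 to 86.6 in Con and 32.7 to 40.9 in CR mice at day 25, and 44.9 to 66.6 in Con and 44.7 to 61.0 in CR mice at day 30, and none was at 0 in all mice. Of 10 hepatocyte markers, 2 were higher at day 25 and 4 at day 30, with 0 lower, and Tat, a tyrosine aminotransferase, passed at both days with log2 fold changes of 1.34 and 1.69. Over both days 4 hepatocyte markers were higher and 2 were lower. The part of these shifts in the changes of the members was not tested.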

How the data were processed

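Liver mRNA of 12 mice was sequenced as paired reads. The submitters' processing notes name CASAVA 1.8.2, FastQC, BWA and DESeq2 and the build mm10, and the file header shows HOMER counting on exons. The authors deposited FPKM per gene, 1 kept transcript each, with exon length. Reads were recovered from the FPKM with a depth fitted to 1500 low values of each library, 100% of which came out whole (tolerance 0.1). The depth was fitted to these same values, so this share is no test of genes with many reads. By this depth, 78.1% to 84.3% of reads lay on exons. Precision is set by 3 mice per group, and the depth limits genes below 1 FPKM.

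FPKM were tested with limma 3.58.1 (R 4.3.3) on log2(FPKM + 1), with 1 mean per group, a trended prior variance and Benjamini-Hochberg adjustment over 10593 genes that reached an FPKM of 1 in 3 or more libraries. The combined comparison had day as a covariate. The method was also run on simulated data with noise drawn independently for each library, and the outcome is not given here. Labels tie the Con columns of day 30 to their group only, so their mouse numbers follow column order. Deviations from the group means of same-numbered Con and CR mice of day 25 had correlations of 0.106 to 0.368. The labels name no pairs, and the replicate number was used as a block in an alternative only. Alternatives changed the pseudocount, filter, scaling, model and libraries, and voom was run on the recovered reads. Members and lists were chosen with earlier results of these data known. Values in every mouse were given for members that passed and for 9 leading members, and of each list up to 3 genes that passed at both days were named, with genes sharing exons with a member. Some genes that this rule names are not reported here. Promoter letters are from RefSeq.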

Additional observations from a re-analysis of the deposited data

How the results depend on the processing

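Across all alternatives, 5 of the 9 calls at day 25 (Nr1i2, Thra, Esr1, Nr2f2 and Cebpb), 8 of the 12 at day 30 (these 5 with Esrra, Ppargc1a and Cebpa) and 14 of the 16 over both days kept direction and threshold wherever they were tested. The 14 include Rarb, which was not tested where an FPKM of 1 was asked of all libraries, and Rxrb and Ncor1 lost the call. Leaving out each replicate in turn gave 5 to 10 members at day 25, with 5 without CR mouse 3 of that day, 8 to 13 at day 30 and 14 to 18 over both days. Past both thresholds it gave 1 to 2 at day 25 and 2 to 3 at day 30. With overlapping genes separated, an alternative chosen after seeing the data, 1 member met both thresholds at day 25 and 2 at day 30, since the change of Thra fell below 1. Other scalings or models added Nr2f6 at day 25 (TPM, quantile), and at day 30 Pparg (TPM, voom, day 30 alone), Nr2c1 (voom) and Rxrb (median-ratio, quantile). Small changes that did not pass turned sign, and the cause was not tested. The log2 fold change of Nr1h3 was 0.0264 at day 30 under median-ratio scaling and -0.0112 over both days as TPM, that of Thrb was -0.0157 at day 25 as TPM, and that of Hnf4a was -0.0093 at day 30 under quantile normalization. Leaving out 1 mouse, Nr1h3 ranged from -0.0088 to 0.1606 at day 25, from -0.1405 to 0.0113 at day 30 and from -0.0339 to 0.0509 over both days. Thrb ranged from -0.0994 to 0.1034, from -0.0134 to 0.168 and from -0.0054 to 0.0979, and Hnf4a at day 30 from -0.0279 to 0.1899. With the replicate block, 10 members passed at day 25 and 14 at day 30, which added Nr2f6 at day 25 and Pparg and Ppargc1b at day 30 and lost none. At day 30 same-numbered mice correlated at 0.0456 to 0.181, a range that overlaps the 0.106 to 0.368 of day 25. Whether mice were paired at either day was not tested.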
